A study of Rattus norvegicus with 21 samples.

Results

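The genes described here are 178 of the 15225 genes tested in rat bladder that were lower after spinal cord injury (SCI) than in noninjured controls at 8 weeks and again at 16 weeks, while their mean at 2 weeks lay close to that of the controls. They were chosen on log2 CPM, in which the count of a gene is set against the TMM-scaled total of its library. At 8 and at 16 weeks, all 3 SCI libraries had to lie below all 3 controls of that week with a mean difference of -0.5 or less, and the mean difference at 2 weeks had to lie between -0.25 and 0.25. The differences between SCI and controls at 2, 8 and 16 weeks therefore chose the genes. Every value from the 2-, 8- and 16-week libraries is a description of genes chosen on those libraries, and the calls by edgeR and DESeq2 given for them below support nothing about the genes. All animals were wild-type male Sprague Dawley rats, 6 to 7 weeks old at the start. In the SCI groups the cord was completely transected at thoracic level 8, and RNA from the whole thickness of the bladder was sequenced at 2, 8 and 16 weeks. Noninjured controls were sequenced at 0, 2, 8 and 16 weeks, which gives 7 groups of 3 libraries, 21 in all. Because the controls of each week were also older than those of the week before, every comparison over time within the controls is a comparison of age as well.

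As background, the bladder wall holds a urothelium, a lamina propria of connective tissue with vessels and nerve fibers, and a detrusor of smooth muscle. After a complete transection above the sacral cord the bladder first passes through spinal shock, in which it does not empty by reflex. A spinal reflex then emerges, and the detrusor contracts against a closed outlet, which is followed over weeks by thickening of the wall and changes in its muscle and matrix. Interval after injury is therefore part of the condition, and the 2-, 8- and 16-week bladders were taken at different stages of this course. In RNA from a whole wall, fewer cells of a type and less RNA per cell cannot be told apart. The identifiers of the genes were not paired with symbols here (0 of 32754 matched), so no gene functions are given, and the markers of bladder tissue and of other cell types were not checked.

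Library totals ranged from 8087726 to 15472537 counts with a median of 9584812, so 1 CPM of the TMM-scaled total stood for 8.46 to 15.1 counts. Some libraries stood apart in these genes. Replicate 2 of the 0-week controls was the highest of its 3 libraries in 165 of the 178 genes, against 37.5% of all genes tested. Replicate 2 of the 8-week SCI group was the highest of its 3 libraries in 143 of the 178, against 38.9% of all genes, and replicate 1 was the lowest in 145, against 36.1%. Replicate 3 of the 2-week SCI group was the lowest of its group in 147, against 37.0% of all genes. The group means, the differences over time, the differences from the 0-week controls and the patterns over time are given below also without the library concerned.

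The level of the 178 genes together was highest in the 8- and 16-week controls. Each gene was centered on its mean over the 21 libraries on the log2 scale, and the centered values were averaged within a library. The 2-week controls had values of -0.08, -0.17 and 0.01. The 8-week controls had 0.35, 0.45 and 0.52, and the 16-week controls had 0.47, 0.50 and 0.36. All 6 older controls lay above all 3 of the 2-week controls. After SCI, the values were -0.10, 0.003 and -0.47 at 2 weeks, -0.75, -0.13 and -0.46 at 8 weeks, and -0.41, -0.20 and -0.37 at 16 weeks. The SCI groups of the 3 time points overlapped one another, and replicate 3 of the 2-week group lay below all 3 of the 16-week libraries. The 0-week controls had -0.11, 0.59 and -0.005, so that replicate 2 lay above every other library of the series while the other two lay among the 2-week controls and 2-week SCI.

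**Figure D1:**
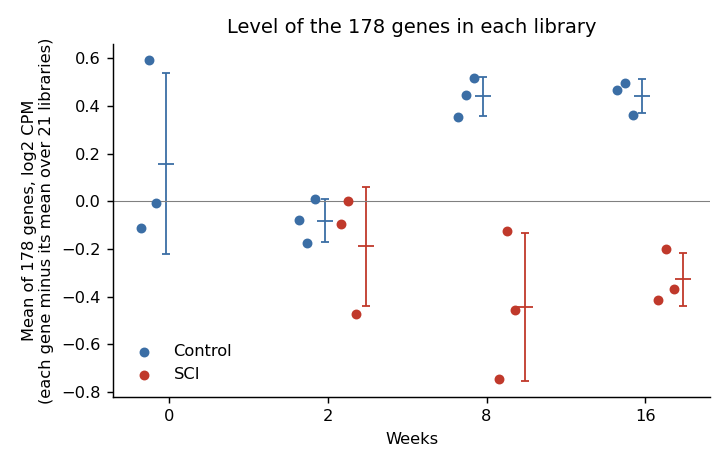
Mean centered log2 CPM of the 178 genes in each library (vertical axis) by group (horizontal axis), with points for libraries and bars for the group mean and SD (n = 3). The 8- and 16-week controls lie between 0.35 and 0.52, the 8- and 16-week SCI libraries between -0.75 and -0.13, and the 0-week controls are spread from -0.11 to 0.59.

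As group means these values were 0.16 ± 0.38 at 0 weeks (SD, n = 3 unless stated), -0.08 ± 0.09 at 2 weeks, 0.44 ± 0.08 at 8 weeks and 0.44 ± 0.07 at 16 weeks in the controls. In SCI they were -0.19 ± 0.25, -0.44 ± 0.31 and -0.33 ± 0.11 at 2, 8 and 16 weeks. Without the libraries that stood apart (n = 2 each) they were -0.06 ± 0.08 in the 0-week controls, -0.05 ± 0.07 in 2-week SCI, and -0.29 ± 0.23 without replicate 1 or -0.60 ± 0.20 without replicate 2 in 8-week SCI. The order of the 8- and 16-week SCI groups thus turned on 1 library. The share of all counts of a library that fell in the 178 genes uses the library total alone, without TMM factors or a log transformation. Abundant genes weigh most in it. In the 8-week controls the 2 most abundant averaged 6960 and 6194 CPM, of 38580 CPM for the 178 together. As a group mean, the share was also highest in the 8- and 16-week controls. This share was 3.08% ± 0.589 in the 0-week controls, 2.69% ± 0.186 at 2 weeks, 3.58% ± 0.226 at 8 weeks and 3.59% ± 0.303 at 16 weeks. In SCI it was 2.47% ± 0.341, 2.30% ± 0.525 and 2.48% ± 0.218, and at 8 weeks 2.51% ± 0.537 without replicate 1 and 2.01% ± 0.176 without replicate 2 (n = 2 each). The lowest share of any library was 1.88% and the highest 3.85%.

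The genes also varied more between animals of one group than other genes did. In 2-week SCI the median SD of log2 CPM was 0.29 over the 178 genes and 0.15 over all genes tested, and in 8-week SCI it was 0.35 against 0.18. In the 0-week controls it was 0.42 against 0.25. The excess was small in the 8-week controls, with 0.20 against 0.18. Other properties of the libraries moved with the level of these genes. The 10 most abundant genes of a library took 9.78% to 11.8% of its counts in the 8- and 16-week controls and 6.31% to 8.81% in 8- and 16-week SCI, and 14.3% in replicate 2 of the 0-week controls, the highest of the series. The TMM factors, by which edgeR corrects library sizes for composition, were 0.922 to 0.988 in those controls and 0.996 to 1.09 in that SCI. The part of composition in the differences was not tested. When libraries were scaled by their totals alone, the median difference over all genes at 8 weeks moved from 0.01 to 0.19, and that of the 178 genes moved from -0.80 to -0.62.

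At 8 weeks the mean difference of SCI from controls over the 178 genes had a median of -0.80 on the log2 scale and ranged from -2.26 to -0.51, and the median was -0.66 without SCI replicate 1 and -0.95 without SCI replicate 2. At 16 weeks the median was -0.70 and the range -2.25 to -0.50. Differences of -1 or less were seen in 45 genes at 8 weeks and in 24 at 16 weeks. Over all genes tested the medians were 0.01 and -0.02. The genes just inside the bounds had differences of -0.506 at 8 weeks and -0.503 at 16 weeks, and those just outside -0.499 and -0.498. The distance on the log2 scale between the lowest control and the highest SCI library had a median of 0.24 at 8 weeks and 0.30 at 16 weeks, and was as small as 0.000487 at 8 weeks and 0.000887 at 16 weeks. The groups of some genes were thus separated by almost nothing.

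In edgeR's quasi-likelihood test over all genes, 101 of the 178 were lower in SCI at 8 weeks at an adjusted p under 0.05 (background 5.14% of all genes tested) and 51 were lower at 16 weeks (background 3.24%). At both weeks 34 were called (background 1.22%), and at neither week 60. Since the same contrasts chose the genes, nothing is read from these counts. They also depended on single libraries. At 8 weeks 1 gene was called without SCI replicate 1 (background 0.188%), 5 without SCI replicate 3 (background 0.349%), and 48, 34 and 41 without control replicates 1, 2 and 3 (backgrounds 2.35%, 2.09% and 2.95%), while 133 were called without SCI replicate 2 (background 9.83%). At 16 weeks edgeR called 0 without control replicate 1, SCI replicate 1 or SCI replicate 3 (backgrounds 0.11%, 0.0841% and 0.0776%), where 135, 126 and 131 genes had an unadjusted p under 0.05 (backgrounds 10.8%, 11% and 11.1%). It called 24, 13 and 6 there without control replicate 2, control replicate 3 or SCI replicate 2 (backgrounds 2.6%, 0.867% and 0.388%), and 101 (background 5.72%) without replicate 2 of the 0-week controls, a library outside this contrast that enters the common fit and the filter (15466 genes tested without it). DESeq2 called 126 at 8 weeks (background 7.62%) and 96 at 16 weeks (background 6.07%).

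The levels over time were compared within each arm. The rule chose genes that were low in SCI and high in controls at 8 and 16 weeks, and its 2-week band favors genes in which the 2-week controls were low, so these differences follow in part from the choice. In the controls, the difference of 8 weeks from 2 weeks had a median of 0.51 over the 178 genes, against 0.003 over all genes tested, and was above 0 in 172. The difference of 16 weeks from 2 weeks had the same median of 0.51, against 0.01 over all genes, and was above 0 in 172. From 8 to 16 weeks the median difference was -0.005. In SCI, the difference of 8 weeks from 2 weeks had a median of -0.21 and was below 0 in 141 genes. That of 16 weeks from 2 weeks had a median of -0.07 and was below 0 in 109. When single libraries were left out, the former median ranged from -0.39 without replicate 2 of the 8-week SCI group to -0.02 without replicate 1, and the latter was 0.046 without replicate 2 of the 2-week SCI group and -0.20 without replicate 3. From 8 to 16 weeks after SCI the median difference was 0.10, and 127 genes were higher at 16 weeks.

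**Figure D2:**
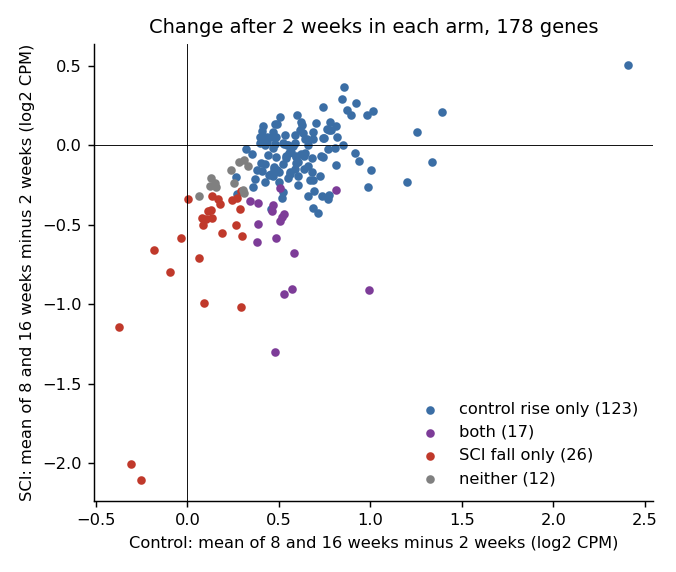
Change of each of the 178 genes from 2 weeks to the mean of 8 and 16 weeks, in controls (horizontal axis, log2) and in SCI (vertical axis, log2), with points colored by the pattern over time. Most points lie to the right of 0 and near 0 on the vertical axis, with median changes of 0.52 in controls and -0.15 in SCI.

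Averaged over 8 and 16 weeks, the change from 2 weeks was larger in the controls than in SCI for 139 genes (78.1%), with medians of 0.52 and -0.15. These changes share libraries with the contrasts that chose the genes, and the choice fixes that controls rise, SCI falls, or both. They are therefore a description. With a cutoff of 0.25 required at 8 and at 16 weeks, 123 genes (69.1%) were higher in the older controls only, 26 (14.6%) were lower in the later SCI groups only, 17 (9.55%) had both and 12 (6.74%) had neither. Over all genes tested, the corresponding shares were 12.9%, 4.84%, 0.854% and 81.4%. The counts, in this order, were 103, 35, 37 and 3 without replicate 3 of the 2-week SCI group, 121, 28, 19 and 10 without replicate 2 of the 8-week SCI group, and 129, 19, 11 and 19 without replicate 1 of that group.

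The 123 genes with a rise in the controls only had a mean centered level of -0.15 ± 0.09 in the 2-week controls, 0.49 ± 0.12 at 8 weeks and 0.50 ± 0.08 at 16 weeks. In SCI they had -0.26 ± 0.23, -0.38 ± 0.33 and -0.23 ± 0.15, and the libraries of the 3 time points overlapped. The 0-week controls of these genes stood at 0.04 ± 0.40, from -0.26 to 0.49. In the 26 genes with a fall in SCI only, the controls stood at 0.15 ± 0.15, 0.28 ± 0.05 and 0.20 ± 0.01 at 2, 8 and 16 weeks, while SCI went from 0.06 ± 0.29 at 2 weeks to -0.60 ± 0.30 at 8 weeks and -0.59 ± 0.20 at 16 weeks. These levels restate how the genes were sorted. The 17 genes with both changes had levels of -0.05 ± 0.06, 0.47 ± 0.07 and 0.49 ± 0.18 in the controls and of -0.05 ± 0.33, -0.65 ± 0.25 and -0.61 ± 0.10 in SCI, in the same order of weeks.

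With the same limit, all 3 of the 8-week controls lay above all 3 of the 2-week controls in 121 genes (68.0%, against 14.2% of all genes tested), and all 3 of the 16-week controls did so in 122 (68.5%, against 16.9%). All 3 of the SCI libraries lay below all 3 of the 2-week SCI libraries in 23 genes at 8 weeks (12.9%, against 5.18%) and in 22 at 16 weeks (12.4%, against 6.59%). Compared with the 2-week controls, the SCI libraries were all lower in 44 genes at 8 weeks (24.7%, against 7.92%) and in 49 at 16 weeks (27.5%, against 9.16%).

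The calls for the same differences come from libraries that the rule used, and are given as counts from which nothing is read. For the 8- against 2-week controls edgeR called 0 of the 178 (background 0% higher), with 99 at an unadjusted p under 0.05 (background 10.3%), and DESeq2 called 13 (background 0.959%). For the 16- against 2-week controls edgeR called 1 (background 0.256%), at an adjusted p of 0.0439, with 94 unadjusted (background 12.7%), and DESeq2 called 29 (background 3.15%). For the 8- against 2-week SCI groups edgeR called 0 (background 0.0131%), with 29 unadjusted (background 2.22%), and DESeq2 called 1 (background 0.112%). For 16 against 2 weeks after SCI edgeR called 0 (background 0.0328%), with 23 unadjusted (background 2.57%), and DESeq2 called 3 (background 0.112%).

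The test of whether the SCI effect itself differed between the weeks used the differences on which the genes were chosen. For 8 against 2 weeks it called 0 (background 0.0197%), the lowest adjusted p was 0.291, and 88 genes had an unadjusted p under 0.05 (background 4.6%), while DESeq2 called 2 (background 0.138%). For 16 against 2 weeks edgeR called 0 (background 0%), the lowest adjusted p was 0.609, and 49 had an unadjusted p under 0.05 (background 4.04%), while DESeq2 called 0 (background 0.0328%). These counts are likewise only a description.

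The 2-week band took its genes from the edge of a larger set. The conditions at 8 and 16 weeks were met by 578 genes (3.8% of those tested), of which 397 had a 2-week difference below the band, 178 lay in it and 3 lay above it. The median 2-week difference of the 578 was -0.36, so the 178 are the part of this set nearest to no difference. Within the band, 145 of the 178 were below 0 and 33 above, the median was -0.14, and 76 lay between -0.25 and -0.15. Without replicate 3 of the 2-week SCI group the median was 0.01, with 80 below 0 and 98 above. Just outside, 104 genes lay within 0.1 below the bound. The nearest gene inside had a difference of -0.248 and the nearest outside -0.251, and at the upper bound these were 0.234 and 0.270. All 3 of the 2-week SCI libraries lay below all 3 controls in 8 of the 178 (4.49%, against 8.43% of all genes tested), and in 204 of the 397.

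**Figure D3:**
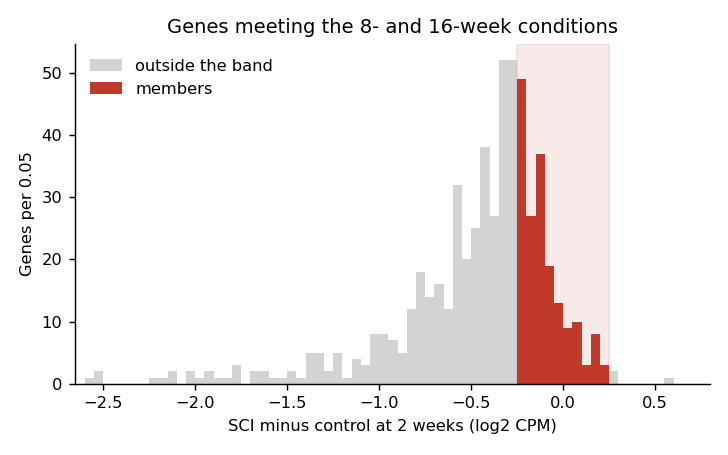
Number of genes (vertical axis) by the 2-week difference of SCI from controls (horizontal axis, log2 CPM) among the 578 genes that meet the 8- and 16-week conditions, with the 178 genes inside the band from -0.25 to 0.25 colored. The distribution has its median at -0.36 and crosses the lower bound with no gap.

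The 0-week controls entered the rule only through the filter and the scaling, and 171 genes met it without them, 170 of which were among the 178. The levels of the 2-week controls did enter, and the band favors genes in which they were low, so the difference between these groups is not wholly independent of the choice. On the log2 scale the 0-week controls lay above the 2-week controls by a median of 0.23 over the 178 genes, against 0.01 over all genes tested, and 158 of the 178 were higher at 0 weeks. Without replicate 2 of the 0-week controls the median was 0.03 and 99 were higher. All 3 of the 0-week controls lay above all 3 of the 2-week controls in 27 genes (15.2%, against 7.53%). EdgeR called 0 of the 178 in either direction (background 0%), with a lowest adjusted p of 0.238. At an unadjusted p under 0.05, 29 were lower at 2 weeks (background 6.61%) and 1 was higher (background 6.82%). Without replicate 2 of the 0-week controls, 9 were lower (background 7.84%). DESeq2 called 1 lower (background 0.177%). A difference between the 0- and 2-week controls in these genes therefore rested largely on 1 library.

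Against the 0-week controls, the median difference was 0.31 in the 8-week controls and 0.31 in the 16-week controls, with 135 and 136 genes above 0. In SCI it was -0.36 at 2 weeks, -0.53 at 8 weeks and -0.40 at 16 weeks, with 162, 168 and 163 genes below 0. Without replicate 2 of the 0-week controls, the medians were 0.51 and 0.53 in the 8- and 16-week controls, with 154 and 155 genes above 0, and -0.15, -0.31 and -0.21 in SCI, with 123, 145 and 123 genes below 0. All 3 SCI libraries lay below all 3 of the 0-week controls in 64 genes at 8 weeks (36.0%, against 9.83%) and in 70 at 16 weeks (39.3%, against 11.7%). The 8- and 16-week groups entered the rule, so nothing is read from these shares.

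By level, the 178 genes spanned mean log2 CPM values of -0.71 to 12.4 with a median of 4.67, close to the median of 4.43 over all genes tested. At a mean log2 CPM of 6 to 8 the share was 19.1% of the 178 and 19.6% of all genes tested. At 4 to 6 it was 27.5% against 34.0%. The most abundant genes were a larger part of the 178: 21 (11.8%) had a mean log2 CPM of 8 or more, against 3.45% of all genes tested. Of these 21, 14 rose in the controls only, 5 fell in SCI only and 1 did both, and their median differences were -0.81 at 8 weeks and -0.63 at 16 weeks. At the other end, 34 genes had a mean log2 CPM under 2, where counts per library are low, and their medians were -1.0 and -0.93.

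The most abundant of the 178 had 6469, 6818 and 7592 CPM in the 8-week controls and 3858, 5683 and 3924 CPM in 8-week SCI. At 16 weeks the controls had 7462, 7947 and 6163 CPM and SCI had 4407, 5552 and 4865 CPM. At 2 weeks the controls had 5652, 4637 and 5119 CPM and SCI had 4661, 4896 and 3963 CPM. The groups were separate at 8 and 16 weeks and overlapped at 2 weeks, and the SCI libraries of the 3 weeks overlapped one another. The log2 differences were -0.65 (SE 0.19) at 8 weeks and -0.54 (SE 0.15) at 16 weeks.

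In the second most abundant gene the older controls lay higher, and the SCI libraries overlapped. Its controls had 3755, 2959 and 3674 CPM at 2 weeks, 5954, 6033 and 6594 CPM at 8 weeks, and 6149, 6792 and 4133 CPM at 16 weeks. All 6 older controls exceeded the 2-week controls, by 0.85 (SE 0.12) at 8 weeks and 0.69 (SE 0.24) at 16 weeks on the log2 scale. After SCI it had 3419, 3561 and 2628 CPM at 2 weeks, 2294, 4362 and 2256 CPM at 8 weeks, and 3011, 3888 and 3535 CPM at 16 weeks. The SCI libraries overlapped across the 3 weeks, with changes from 2 weeks of -0.17 (SE 0.34) and 0.12 (SE 0.17), and the highest of the 9 was again replicate 2 at 8 weeks. The third most abundant gene had 1655, 1369 and 1515 CPM in the 2-week controls and 2266, 2568 and 3087 CPM in the 8-week controls. In 8-week SCI it had 869.8, 1934 and 1084 CPM, with replicate 2 again the highest, and its differences from controls were -1.10 (SE 0.37) at 8 weeks and -0.68 (SE 0.25) at 16 weeks. The fifth had the same course, with differences of -1.06 (SE 0.32) and -0.58 (SE 0.19).

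The fourth most abundant gene was one of those with a fall in SCI only. Its controls had 1484, 1405 and 1699 CPM at 2 weeks, 1699, 1751 and 1507 CPM at 8 weeks and 1523, 1529 and 1719 CPM at 16 weeks, which overlapped. After SCI it had 1259, 1737 and 1060 CPM at 2 weeks, 751, 1187 and 948 CPM at 8 weeks, and 929, 1043 and 810.4 CPM at 16 weeks. All 3 of the 16-week SCI libraries lay below all 3 of the 2-week SCI libraries, while the 8-week libraries overlapped with them. The log2 differences of SCI from controls were -0.20 (SE 0.22) at 2 weeks, -0.80 (SE 0.20) at 8 weeks and -0.78 (SE 0.12) at 16 weeks.

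**Figure D4:**
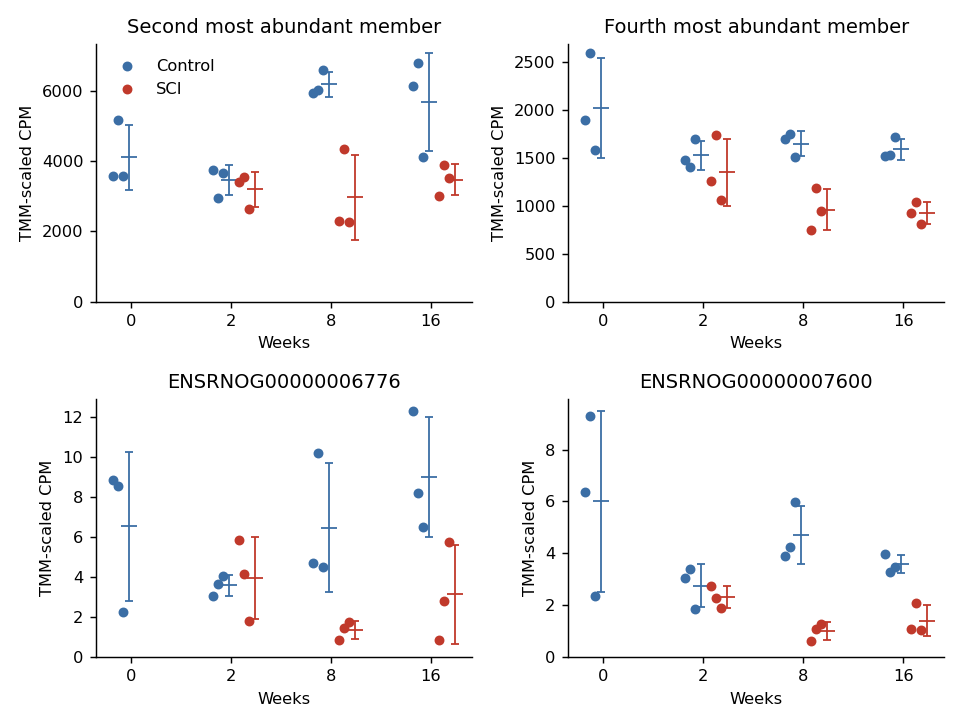
CPM in each library (vertical axes, linear from 0) by week (horizontal axes) for 4 of the 178 genes, with points for libraries and bars for the group mean and SD (n = 3). Each gene is lower in SCI than in controls at 8 and 16 weeks, and the 2-week groups overlap.

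Among genes with a mean log2 CPM of at least 1, the lowest sum of the 8- and 16-week differences belonged to ENSRNOG00000006776. It had 4.73, 10.2 and 4.50 CPM in the 8-week controls and 0.858, 1.42 and 1.76 CPM in 8-week SCI, a log2 difference of -2.06 (SE 0.46). At 16 weeks it had 12.3, 8.22 and 6.51 CPM in controls and 0.820, 2.79 and 5.78 CPM in SCI, a difference of -1.76 (SE 0.79). The groups were separate at both weeks, though the highest 16-week SCI library came close to the lowest control, and the difference was -1.08 without replicate 1 of that SCI group. At 2 weeks the controls had 3.03, 3.63 and 4.06 CPM and SCI had 5.88, 4.14 and 1.77 CPM, so that the SCI libraries lay on both sides of the controls. The 0-week controls had 8.85, 8.54 and 2.23 CPM, and the edgeR log2 change from 0 to 2 weeks was -0.89 (SE 0.54, adjusted p = 0.495).

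The next lowest sum was that of ENSRNOG00000007600. It had 3.90, 4.24 and 5.96 CPM in the 8-week controls and 0.601, 1.09 and 1.27 CPM in 8-week SCI, a difference of -2.07 (SE 0.32). At 16 weeks it had 3.98, 3.29 and 3.46 CPM in controls and 1.05, 2.09 and 1.04 CPM in SCI, a difference of -1.30 (SE 0.30). The controls stayed within 3.29 and 5.96 CPM at these weeks, and no SCI library exceeded 2.09 CPM. At 2 weeks the controls had 3.03, 3.40 and 1.83 CPM and SCI had 2.74, 2.28 and 1.88 CPM, which overlapped. The 0-week controls had 6.38, 9.30 and 2.34 CPM, and the edgeR log2 change from 0 to 2 weeks was -1.12 (SE 0.38, adjusted p = 0.273). Both genes were rare, and the 8-week SCI values rest on 10 to 18 counts per library for the former and 7 to 13 for the latter.

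A pair of genes at the extremes of change over time were chosen after their values were seen. The gene with the largest rise in the controls had 0.268, 0.0790 and 0.101 CPM in the 2-week controls, 1.06, 1.26 and 1.35 CPM at 8 weeks and 1.86, 3.18 and 1.47 CPM at 16 weeks. In SCI it stayed at or below 0.489 CPM in all 9 libraries, which is at most 5 counts. The gene with the largest fall in SCI had 2.13, 3.11 and 2.66 CPM at 2 weeks, 0.0858, 0.982 and 0.391 CPM at 8 weeks and 1.05, 0.199 and 0.578 CPM at 16 weeks. Its controls had 2.94, 1.82 and 2.74 CPM at 2 weeks, 3.54, 1.38 and 3.49 CPM at 8 weeks and 1.92, 1.75 and 1.15 CPM at 16 weeks. Each of its later SCI values rests on 1 to 9 counts.

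Which genes met the rule depended on single libraries. Without replicate 2 of the 8-week SCI group 314 genes met it, the 178 among them. Without replicate 3 of the 2-week SCI group 291 met it, of which 159 were among the 178, and without replicate 2 of that group 105 met it, of which 92 were. With libraries scaled by their totals alone 86 met it, 74 of them among the 178.

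**Figure D5:**
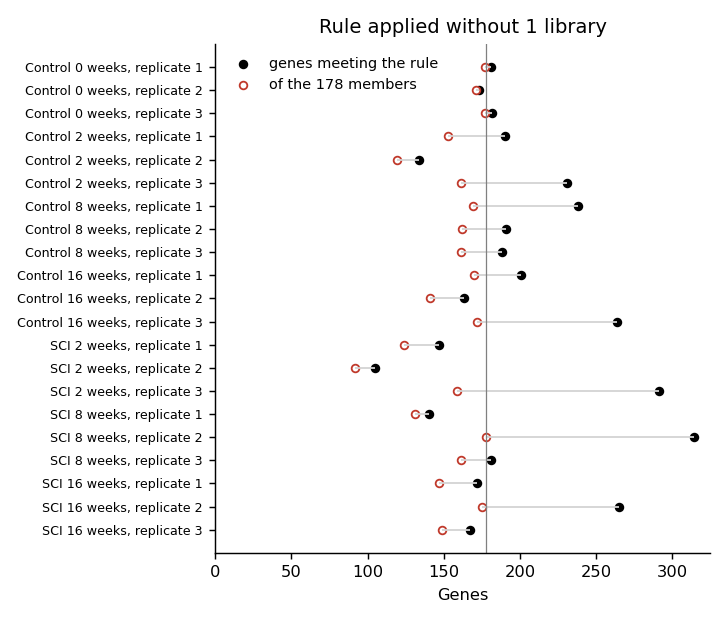
Number of genes that meet the rule (horizontal axis) when each of the 21 libraries is left out in turn (vertical axis), and how many of these are among the 178. The number ranges from 105 without 2-week SCI replicate 2 to 314 without 8-week SCI replicate 2.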

How the data were processed

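RNA from full-thickness rat bladder was made into rRNA-depleted, stranded libraries, all labelled as 1 batch. The deposited table holds whole-number counts per Ensembl gene that the authors made from their reads. The submitters' processing notes name FastQC 0.11.9, MultiQC 1.13, Trim Galore 0.6.10, STAR 2.7.10a, SAMtools 1.17, featureCounts 2.0.3 and the build Rnor_6.0. The annotation release and the strand setting of the counting are not given in the sources used here, so overlapping genes could not be told apart from one another with certainty.

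From the counts, 15225 of 32754 genes passed edgeR's filterByExpr on the 7 groups (R 4.3.3, edgeR 4.0.16). Libraries were scaled by TMM, and log2 CPM had a prior count of 2. Tests were edgeR's quasi-likelihood F tests in 1 fit of all 21 libraries with a mean for each group and no covariate, adjusted by Benjamini-Hochberg over all genes tested, with a threshold of 0.05. The procedure was run on simulated data for the 2- against 0-week controls, with 200 of 15061 genes changed 4-fold. It recovered 192 of these, all 192 in the right direction, and made 12 false calls. Most differences described above were smaller than 4-fold, so this run does not show how well they would be recovered. SEs of differences come from the SDs of both groups on the log2 CPM scale (n = 3 each), except where edgeR is named. In the main edgeR fit a p-value sets a difference of group means against the spread within groups. That spread was estimated from all 21 libraries with information shared across genes, so libraries outside a contrast also affect its p-values. DESeq2 1.42.0, other scalings, filters, prior counts, bounds of the rule and the omission of each library were alternatives.

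The members, lists and tests were chosen with earlier results of these data known. Genes named or described singly were the members of mean log2 CPM of at least 1 with the lowest sum of 8- and 16-week differences, the most abundant members and those nearest the bounds, and also the members with the largest control rise and the largest SCI fall, chosen after their values were seen. At most 2 identifiers were to be printed where symbols were lacking. The planned gene lists, cell type markers and promoter motifs were not used, since 0 identifiers matched a symbol in the RefSeq table. Depth covers counting error only, and counts of 10 or fewer per library are imprecise.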

Additional observations from a re-analysis of the deposited data

How the results depend on the processing

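The number of genes meeting the rule was 178, and it moved to 86 with library sizes alone, 16 with a minimum difference of -1, 374 with a 2-week band of 0.5, 51 with a band of 0.1, and 105 to 314 when libraries were left out in turn (291 without 2-week SCI replicate 3). It was 174 with RLE factors, 179 without a filter and 178 with a prior count of 0.5, of which 172, 165 and 174 were among the 178. Of the 178, edgeR called 101 lower at 8 weeks (background 5.14% of all genes), against 20 with only the groups compared (background 1.56%) and 1 to 137 with libraries left out (backgrounds 0.188% to 9.83%). It called 51 lower at 16 weeks (3.24%), against 96 by DESeq2 (background 6.07%), 126 with only the groups compared (7.34%), 108 without the 0-week controls (6.7%) and 0 to 101 with libraries left out (0.0776% to 5.72%). For 2- against 0-week controls edgeR called 0 (background 0%). At an unadjusted p under 0.05, 29 were lower and 1 was higher at 2 weeks (backgrounds 6.61% and 6.82%). DESeq2 called 1 for these groups (background 0.296%). With libraries left out edgeR called 0 to 1, the 1 being without 0-week control replicate 3 (background 0.529%). With the replicate number as a block the counts were 126 at 8 weeks (background 7.36%) and 82 at 16 weeks (4.85%). For the 2- against 0-week controls the blocked fit called 0 (background 0%), with 33 at an unadjusted p under 0.05 in either direction (background 13.9%). Samples of the same number showed little correlation in their deviations (-0.184 to 0.127 over 9 pairs), and not every sample was closest to its own number. With 3 samples per group, and SCI against controls at 2 weeks not examined, this gave no clear sign of a pairing but cannot exclude one. The median change of the 178 from 2 to 16 weeks after SCI was -0.07, ranged from -0.20 to 0.046 with libraries left out and reversed to 0.046 without 2-week SCI replicate 2, and their change from 2 to 8 weeks in controls was 0.38 with library sizes alone, against 0.51. The cause of these shifts was not tested. Of these, the values without all 0-week controls, the 8- and 16-week calls without replicate 2 of them, the unadjusted counts for 2 against 0 weeks and the settings for the median changes were chosen after seeing the data, as were the values without single libraries for group means, patterns and differences from 0 weeks, and the others were planned. Low counts limit the 34 genes with a mean log2 CPM under 2.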
